A study of Mus musculus with 13 samples.

Results

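The genes of glycolysis and of the response to low oxygen form a set of 40, taken from the 15213 genes of the deposited expression table by their symbols. The set was chosen with earlier results of these data known. All 40 members were listed there. The set holds glucose transporters, the enzymes of the glycolytic chain, the enzymes and carriers that decide the fate of pyruvate and lactate, the subunits of the hypoxia-inducible factors (HIF) with their prolyl hydroxylases, and further genes that HIF is known to switch on.

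RNA was sequenced from 10 mammary tumors of 6 female mice and from the mammary glands of 3 wild-type FVB females. The tumor-bearing females, labelled MtTA Teto-TSG101wt, carried the MMTV-tTA and TetO-Tsg101 transgenes on the same FVB background. The tetracycline transactivator under the MMTV promoter thus drives an HA-tagged Tsg101 as long as no doxycycline is given. Per the study, the transactivator is active in part of the luminal epithelium of the normal gland. In the carcinomas, the study found its GFP reporter in basal cells too. Per the study's methods, the molecular work used a single founder line of the TetO-Tsg101 transgene. The 10 tumors were not all independent, since 3 mice supplied 1 tumor each, 2 mice supplied 2 and 1 mouse supplied 3. The glands came from 3 mice whose age and reproductive stage are not given in the sources used here.

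Glycolysis splits glucose into pyruvate in the cytosol, and lactate dehydrogenase turns pyruvate into lactate, which leaves the cell through monocarboxylate transporters. Cells that are short of oxygen stabilize HIF1A or EPAS1 (HIF2A), since prolyl hydroxylases such as EGLN1 and EGLN3 need oxygen to mark both for destruction. The stabilized factors bind the short core of hypoxia response elements (ACGTG or GCGTG) and raise glycolytic enzymes, carbonic anhydrases that handle acid, and survival genes. Because HIF1A and EPAS1 are controlled mainly as proteins, the level of their mRNA is not a measure of their activity. In the mammary gland, the same enzymes also serve milk synthesis, which draws on glucose.

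Tumor libraries held 6176269 to 16835397 reads, and gland libraries 11672487 to 23889042. Values are called normalized cpm, that is, counts scaled by an effective library size. Tsg101 itself was read at 49.9 to 101 normalized cpm in the tumors and at 45.6, 53.0 and 61.0 in glands 1, 2 and 3, which was no significant difference (log2 fold change 0.30 ± 0.20, limma adjusted p = 0.296), and reads of the transgene and of the mouse gene cannot be told apart. Among the genes of the tissue markers, 12 of 12 tested squamous genes were significantly higher in the tumors, against 10.2% of all genes tested. Without the filter on low values, 13 of 14 listed squamous genes were higher, against 10.5% of all listed genes. Of the milk genes, 8 of 8 were significantly lower in the tumors, against 6.99% of all genes tested. Within each group, the libraries were spread along one axis that followed transcript GC content and, in part, exon length. The Spearman rho between the deviation of a library from its group mean and GC content over 11561 genes, given as a description across genes, ran from -0.483 to 0.444. Gland 3 and tumors 1, 5 and 9 lay at one end, under a limit of -0.3 that was set after seeing the data, and are called below the libraries that stood apart. Tumors 3 and 6 lay as far out at the other end, at 0.442 and 0.444. The rho with exon length, over 11157 genes, ran from -0.412 in gland 3 to 0.422 in tumor 4. The reads of Rn45s, a ribosomal RNA precursor, made up 0.456% to 27.4% of the reads in the tumors, with the highest share in tumor 9.

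Significantly deregulated genes are those with an FDR under 0.05 (limma on log2(normalized cpm + 1), Benjamini-Hochberg over 11795 genes) and a change of more than 2-fold. After the filter on low values 39 members remained, of which 8 were significantly higher in the tumors (20.5%, against 10.2% of all genes tested) and 6 were significantly lower (15.4%, against 6.99%). With 10 tumors among 13 libraries, the filter can leave out genes that are high in the glands alone, and without it 8 of 40 members were higher and 6 lower, against 10.5% higher and 10.1% lower of all listed genes. The 8 higher genes were Car12, Car9, Slc16a3, Ankrd37, Pgk1, Gapdh, Pfkfb4 and Ddit4. The 6 lower genes were Pdk4, Epas1, Ndrg1, Slc16a1, Aldoc and Ldhb. The median log2 fold change was -0.20 over the members and 0.01 over all genes tested. By the FDR alone 10 members were higher (14.8% of all genes tested) and 8 lower (13%), and 21 tested members did not pass the FDR. All 10 tumors lay above all 3 glands for 8 members (10.7% of all genes tested) and below them for 8 (8.53%). With edgeR on the recovered reads 8 members were higher (9.51%) and 7 lower (8.07%). In bulk tissue, fewer cells of a type and less RNA per cell cannot be told apart.

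**Figure D1:**
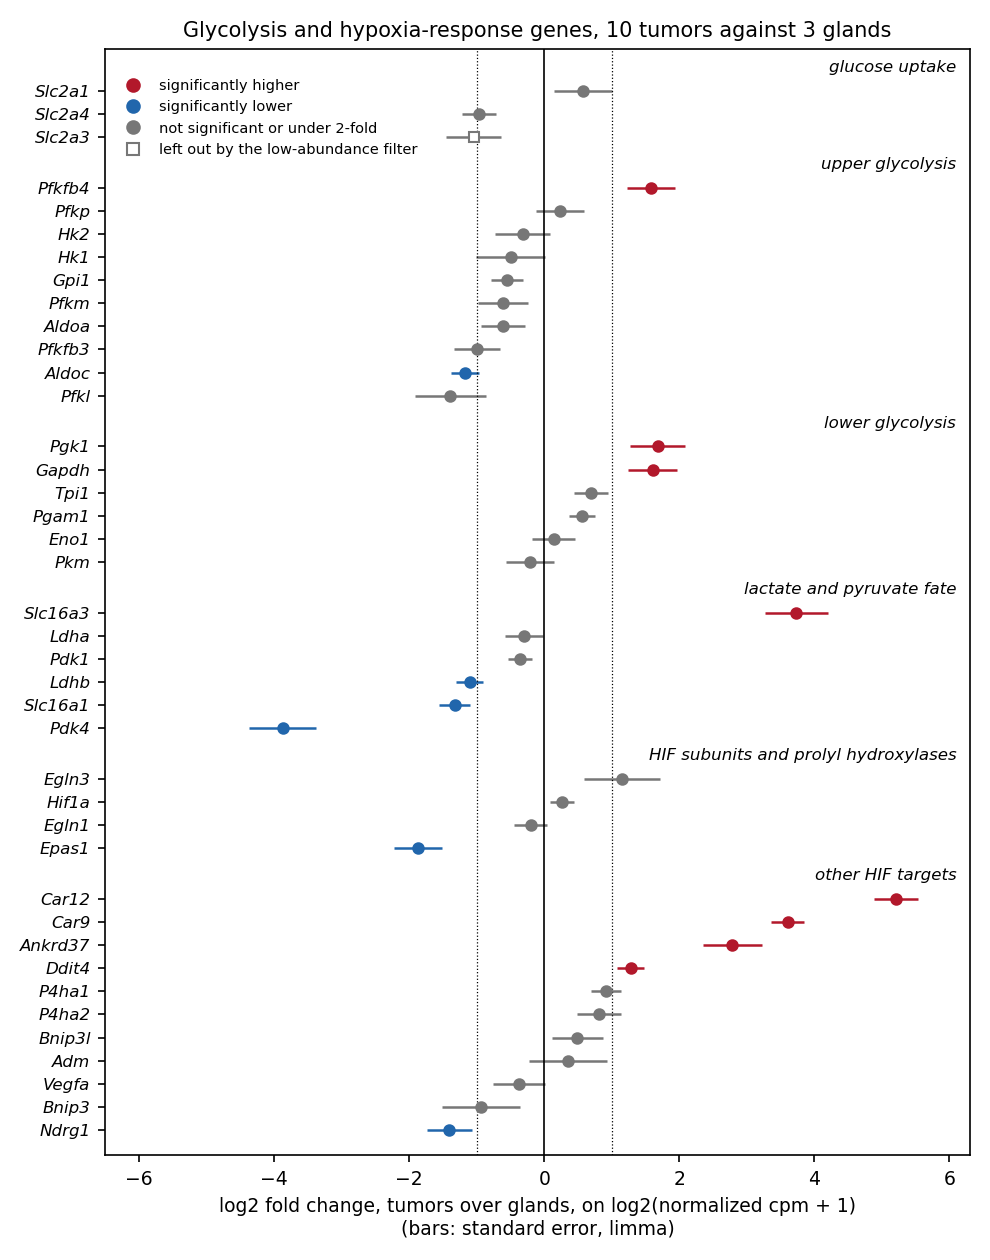
Log2 fold change of each member in the 10 tumors over the 3 glands on the log2(normalized cpm + 1) scale, with the standard error of limma, grouped by role. Dotted lines mark the 2-fold limit. Car12 lies at 5.21 and Pdk4 at -3.87, whereas most enzymes of the glycolytic chain lie within the dotted lines.

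Because HIF acts through a short DNA core, the promoters of members were searched for it in RefSeq windows (GRCm38.p6). A window runs from 250 bases before to 50 bases after an annotated start. The search used ACGTG and GCGTG on both strands, where ACGTG on both strands at once is the E-box CACGTG that other factors bind. Windows were given for 35 of the members, some of which have several starts. They do not cover every annotated start. For some members, such as Car12, Pfkfb4 and Slc16a3, the only window begins inside the gene position, and the outermost start was not searched. ACGTG was found in 27 of 49 member windows (55.1%), in 24.2% of the 14763 windows of genes in the expression table and in 19.6% of all 32851 windows. ACGTG or GCGTG was found in 81.6% of member windows, in 59.3% of windows of listed genes and in 43.8% of all windows. The E-box CACGTG was in 12.2% of member windows, in 9.42% of windows of listed genes and in 7.15% of all windows. The median GC content was 62% in member windows and 60% in windows of listed genes. Among genes with a window, ACGTG occurred in 6 of 8 significantly higher members, in 2 of 4 significantly lower members and in 16 of 23 others. A match is a description of letters and not evidence of a bound site.

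The stretches around the nearest ACGTG core before the start are shown for 5 members that were higher in the tumors, followed by Slc16a1, which was lower, and by Ldha and Slc2a1, which were neither, so that the letters can be compared with the response. Capitals mark ACGTG or, for the other strand, CACGT, and CACGTG is the overlap of both. Each stretch reads 5′ to 3′ on the strand of the gene and ends at or before the base in front of the start that its window covers.
Car9 (chr4:43506996-43507024, plus strand): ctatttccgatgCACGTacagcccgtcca
Slc16a3 (chr11:120949023-120949066, plus strand): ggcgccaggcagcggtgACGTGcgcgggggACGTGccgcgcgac
Ankrd37 (chr8:45999851-45999886, minus strand): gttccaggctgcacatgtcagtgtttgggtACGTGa
Ddit4 (chr10:59951923-59951987, minus strand): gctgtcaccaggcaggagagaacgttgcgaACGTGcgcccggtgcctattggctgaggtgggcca
Pgk1 (chrX:106186939-106187003, plus strand): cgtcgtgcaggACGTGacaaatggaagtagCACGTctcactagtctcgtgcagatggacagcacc
Slc16a1 (chr3:104638435-104638499, plus strand): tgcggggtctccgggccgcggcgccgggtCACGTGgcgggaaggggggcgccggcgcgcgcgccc
Ldha (chr7:46845740-46845803, plus strand): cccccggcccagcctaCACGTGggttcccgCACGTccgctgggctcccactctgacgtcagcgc
Slc2a1 (chr4:119108697-119108725, plus strand): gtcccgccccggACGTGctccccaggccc

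Slc16a3 and Pgk1 each carry 2 cores in the stretch, on the same strand in Slc16a3 and on opposite strands in Pgk1. Ldha carries the E-box form beside a further core, and its level did not pass the test. The only window given for Car12, the member with the largest rise, holds neither form of the core. That window (chr9:66713436-66713735) lies inside the gene position, which begins at 66712296, so the sequence before the outermost start was not searched. The core thus occurred in windows of higher, lower and uncalled members.

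Glucose enters mammary cells mainly through the transporter Slc2a1 (GLUT1), which HIF is known to raise. Slc2a1 was between 45.7 and 225 normalized cpm in the tumors (median 66.8) and at 63.4, 62.9 and 35.4 in the glands, so that the groups overlapped (log2 fold change 0.57 ± 0.43, limma adjusted p = 0.356). Slc2a4, the insulin-responsive transporter of fat and muscle, was at 23.0 to 51.0 in the tumors against 55.7 to 74.7 in the glands. All tumors lay below all glands for Slc2a4, which passed the FDR but not the 2-fold limit (-0.97 ± 0.25, limma adjusted p = 0.0101). Slc2a3 was left out by the filter, as no tumor exceeded 3.57 normalized cpm. Its glands were at 10.1, 1.19 and 8.05, and without gland 2 it was lower in the tumors (-1.77, limma adjusted p = 8.73e-04), whereas with all libraries and no filter it was not (-1.04, limma adjusted p = 0.0631). With all libraries, edgeR (-1.62, edgeR adjusted p = 0.0176) and DESeq2 (-1.62, DESeq2 adjusted p = 0.0112) called Slc2a3 lower.

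The upper enzymes of glycolysis, from hexokinase to aldolase, gave 1 higher and 1 lower gene among 10, near the 10.2% higher and 6.99% lower over all genes tested. Aldoc, an aldolase isoform best known from the brain, had 73.2 to 146 normalized cpm in the tumors (median 108) and 218, 304 and 222 in the glands. Every tumor was below every gland, and Aldoc was 2.25 times higher in the glands by the means (log2 fold change -1.18 ± 0.20, limma adjusted p = 5.60e-04). Aldoa, the main isoform, was at 297 to 806 in the tumors and 912, 807 and 587 in the glands and did not pass the test (-0.62 ± 0.33, limma adjusted p = 0.183).

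The bifunctional enzymes PFKFB3 and PFKFB4 make and remove fructose 2,6-bisphosphate, an activator of phosphofructokinase. Pfkfb4 was at 8.60 to 36.7 normalized cpm in the tumors (median 15.3) and at 5.61, 3.46 and 5.85 in the glands. All tumors were above all glands (log2 fold change 1.58 ± 0.36, limma adjusted p = 0.00413). Pfkfb3 was at 14.6 to 64.1 in the tumors and at 103, 65.6 and 88.5 in the glands, with all tumors below all glands, and passed the FDR at -0.99 ± 0.34 (limma adjusted p = 0.0430) but not the 2-fold limit. Per kb of exon, Pfkfb4 was 0.248 to 1.30 times the level of Pfkfb3 in the tumors and 0.0862, 0.0835 and 0.105 times in the glands.

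Hexokinases, glucose-6-phosphate isomerase and the phosphofructokinases did not pass the test. The log2 fold changes were -0.50 for Hk1, -0.32 for Hk2, -0.55 for Gpi1, -0.61 for Pfkm and 0.24 for Pfkp. Hk1 was at 127, 141 and 34.4 normalized cpm in the glands, and its difference was -1.14 without gland 3 and -0.14 without gland 2. Pfkl, the liver-type phosphofructokinase, was at 42.6 to 350.1 normalized cpm in the tumors and at 526, 473 and 155 in the glands, a difference of -1.39 ± 0.53 (limma adjusted p = 0.0632). Gland 3, one of the libraries that stood apart, was within the range of the tumors, and without it Pfkl was significantly lower (-1.95, limma adjusted p = 0.0177). It was also lower without the 4 libraries that stand apart (-1.53, limma adjusted p = 0.00927), a choice made after seeing the data. With all libraries, edgeR (-1.38, edgeR adjusted p = 0.0400) and DESeq2 (-1.36, DESeq2 adjusted p = 0.0248) called it lower, whereas without gland 1 or gland 2 limma did not (limma adjusted p = 0.285 and 0.245).

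The lower enzymes, from triose phosphate isomerase to pyruvate kinase, gave 2 higher genes (33.3%, against 10.2% of all genes tested) and no lower gene among 6. Gapdh, which oxidizes glyceraldehyde 3-phosphate and is often used as a reference gene, was at 20.5 to 56.0 normalized cpm in the tumors (median 40.2) and at 6.81, 8.52 and 24.7 in the glands. Of the 10 tumors, 8 were above all glands, and the log2 fold change was 1.61 ± 0.36 (limma adjusted p = 0.00382). Pgk1, phosphoglycerate kinase, was at 86.1 to 294 in the tumors (median 128) and at 24.8, 30.4 and 103 in the glands, with 8 tumors above all glands and a log2 fold change of 1.68 ± 0.41 (limma adjusted p = 0.00635).

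Gland 3 was the highest gland for both genes. Without gland 3 the differences were 2.13 for Gapdh and 2.30 for Pgk1 (limma adjusted p = 3.99e-04 and 4.27e-04). Without gland 1, Pgk1 was at 1.30 and did not pass the test (limma adjusted p = 0.0651). Tumor 9 had the highest level of Pgk1.

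Gapdh and Pgk1 are also the members whose sequence is most often shared with other genes. Of the 75-base windows (the stated read length) of the longest coding transcript, 80.3% of Gapdh and 67.5% of Pgk1 occurred in transcripts of other genes in the GENCODE M21 annotation. For Gapdh these came from 121 genes, 5 of which are listed in the expression table, and for Pgk1 from 4 genes, none of them listed. Eno1 shared 65.4% of its windows, for the most part with Eno1b, Bnip3 shared 46.3% and Pgam1 40.6%, whereas 20 members, among them Slc16a3, Slc16a1, Car12, Epas1, Pfkfb4 and Ddit4, shared none. Per kb of exon, Gapdh ranked 19 among the members in the tumors and 29 in the glands. How reads that match several genes were treated is not given in the sources used here, so the values of these 5 genes are uncertain, and the part of the shared sequence in the differences was not tested.

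**Figure D2:**
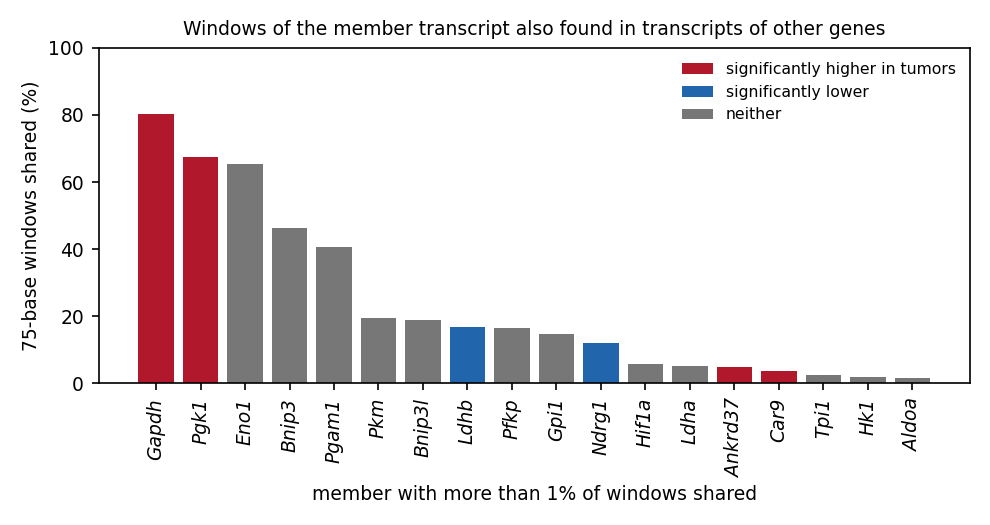
Percent of 75-base windows of the longest coding transcript of a member that also occur in transcripts of other genes, for members above 1%, colored by the result of the test. Gapdh (80.3%) and Pgk1 (67.5%), both significantly higher in the tumors, lead the members, followed by Eno1 (65.4%).

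The other lower enzymes were not significantly deregulated. Pkm, which makes pyruvate, was at 231 to 871 normalized cpm in the tumors (median 427) and at 638, 585 and 374 in the glands, with a log2 fold change of -0.21 ± 0.35 (limma adjusted p = 0.700). Tumors of Pkm lay on both sides of all glands. Tpi1 (0.69, limma adjusted p = 0.0557) and Eno1 (0.14, limma adjusted p = 0.781) did not pass the FDR, and Pgam1 passed it at 0.56 (limma adjusted p = 0.0468). Across the 16 members that code for the enzymes from hexokinase to lactate dehydrogenase, 2 were higher, 2 were lower and 12 were not called, counts to be read against 10.2% higher and 6.99% lower over all genes tested. Their summed level was 1899 to 4398 normalized cpm in the tumors (median 2673) and 3923, 3822 and 2719 in the glands, so that the groups overlapped.

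The members that carry lactate and steer pyruvate gave 1 higher (16.7%, against 10.2% of all genes tested) and 3 lower genes (50%, against 6.99%) among 6. Slc16a3 (MCT4, Entrez 80879, chr11:120948484-120959000 in GRCm38.p6), a lactate exporter that HIF1A is known to raise, was at 10.3 to 79.3 normalized cpm in the tumors (median 26.2) and at 2.23, 0.826 and 0.731 in the glands. All tumors were above all glands (log2 fold change 3.73 ± 0.47, limma adjusted p = 3.44e-05). Slc16a1 (MCT1, Entrez 20501, chr3:104638664-104658462), which moves lactate in either direction, was at 60.8 to 131 in the tumors (median 69.9) and at 173, 217 and 206 in the glands. All tumors were below all glands (-1.33 ± 0.23, limma adjusted p = 4.78e-04). Per kb of exon, the level of Slc16a3 over that of Slc16a1 was 0.106 to 1.22 in the tumors (median 0.295) and 0.0128, 0.00379 and 0.00354 in the glands. Slc16a1 was thus the more abundant carrier in all glands and in all tumors but tumor 7.

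Lactate dehydrogenase is built from A and B subunits. Ldha, the subunit that favors the making of lactate, was at 314 to 805 normalized cpm in the tumors (median 472) and at 619, 625 and 582 in the glands, with a log2 fold change of -0.30 ± 0.28 (limma adjusted p = 0.465). The groups overlapped, and Ldha had the highest level per kb among the members in both tissues. Ldhb, the subunit that favors the use of lactate, was at 15.0 to 30.8 in the tumors (median 20.3) and at 52.2, 49.6 and 41.7 in the glands. All tumors were below all glands (-1.10 ± 0.20, limma adjusted p = 8.77e-04). Without the mouse that gave 3 tumors, Ldhb was at -0.98 (limma adjusted p = 0.00350), under the 2-fold limit. The ratio of Ldha to Ldhb per kb was 8.87 to 22.3 in the tumors and 8.16, 8.67 and 9.61 in the glands, and tumor 1 lay among the glands.

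Pyruvate dehydrogenase kinases inhibit pyruvate dehydrogenase, the mitochondrial enzyme complex that turns pyruvate into acetyl-CoA. Pdk4 (Entrez 27273, chr6:5483351-5496278), which is known from fasting and fat oxidation, was at 1.38 to 15.6 normalized cpm in the tumors (median 8.81) and at 89.5, 123 and 144 in the glands. All tumors were below all glands, and the mean of the glands was 14.2 times that of the tumors (log2 fold change -3.87 ± 0.50, limma adjusted p = 4.52e-05). Pdk1, which HIF1A is known to raise, was at 32.4 to 62.3 in the tumors and 57.4 to 60.4 in the glands (-0.36 ± 0.17, limma adjusted p = 0.141). The ratio of Pdk1 to Pdk4 per kb was therefore 2.50 to 20.8 in the tumors and 0.439, 0.329 and 0.268 in the glands.

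**Figure D3:**
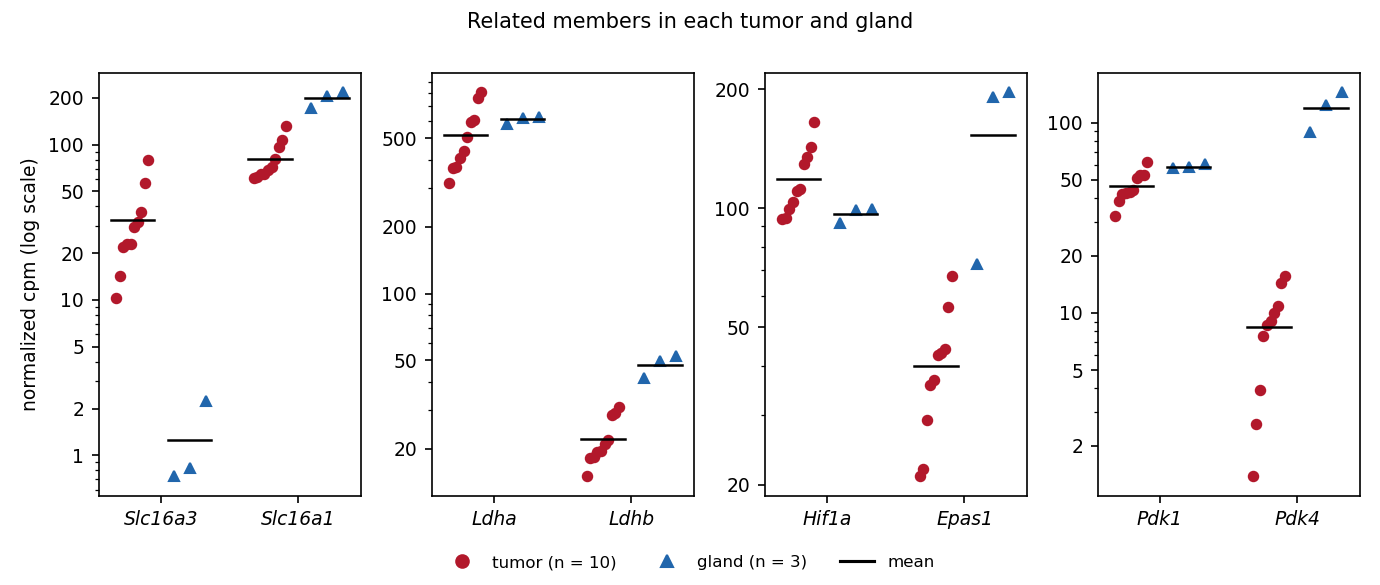
Normalized cpm (log scale, each panel with its own range) of 4 pairs of related members in each of 10 tumors and 3 glands, sorted from low to high within a group, with the group mean as a line. Slc16a3 was above the glands and Slc16a1 below them in all 10 tumors, and Pdk4 was below all glands while Pdk1, Ldha and Hif1a overlapped.

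Of the HIF system, Hif1a was at 94.0 to 165 normalized cpm in the tumors (median 111) and at 99.8, 91.8 and 99.2 in the glands, which did not differ significantly (log2 fold change 0.27 ± 0.18, limma adjusted p = 0.302). Epas1 (Entrez 13819, chr17:86753864-86833410) was at 21.0 to 67.5 in the tumors (median 39.7) and at 191, 196 and 72.5 in the glands. All tumors were below all glands (-1.87 ± 0.35, limma adjusted p = 0.00109). Gland 3 was close to the highest tumor, and without it Epas1 was at -2.34 (limma adjusted p = 2.55e-04). Per kb, Hif1a exceeded Epas1 by 2.02 to 5.34 times in the tumors and was 0.530, 0.473 and 1.39 times Epas1 in the glands.

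EPAS1 is known for its high level in endothelial cells. In the same libraries 9 of 12 endothelial marker genes were significantly lower in the tumors (75%, against 6.99% of all genes tested, median log2 fold change -1.74), and the summed level of the list was 168 to 340 normalized cpm in the tumors and 887, 934 and 454 in the glands. Gland 3 was the lowest gland for both that sum and Epas1. The part of endothelial cells in the fall of Epas1 was not tested.

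The prolyl hydroxylase Egln1 was at 34.6 to 81.2 normalized cpm in the tumors (median 54.2) and at 77.9, 67.3 and 48.0 in the glands (-0.20 ± 0.25, limma adjusted p = 0.589). Egln3, the prolyl hydroxylase that is itself a HIF target, ranged from 31.2 to 373 in the tumors and was at 37.0, 44.3 and 34.9 in the glands. Its log2 fold change of 1.15 ± 0.57 did not pass the test (limma adjusted p = 0.150), whereas DESeq2 called it higher (1.56, DESeq2 adjusted p = 0.0300).

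Among the other HIF targets, 2 carbonic anhydrases had the largest rises. Car12 (Entrez 76459, chr9:66712296-66766845 in GRCm38.p6), a carbonic anhydrase of the cell surface that is also known as a target of estrogen receptor in breast epithelium, was at 75.6 to 238 normalized cpm in the tumors (median 136) and at 2.48, 3.82 and 1.71 in the glands. All tumors were above all glands, 52.5-fold by the means (log2 fold change 5.21 ± 0.33, limma adjusted p = 6.20e-08). Car9 (Entrez 230099, chr4:43507026-43513729), the carbonic anhydrase most often used as a hypoxia marker, was at 13.2 to 32.3 in the tumors (median 20.7) and at 1.11, 0.361 and 1.34 in the glands. All tumors were above all glands, 24.1-fold by the means (3.60 ± 0.25, limma adjusted p = 1.53e-07). Genes on the other strand overlap Car9, Ankrd37 and Ndrg1, and the sources used here do not say whether strand was used in counting. Shared 75-base windows, searched on both strands, made up 3.75% of Car9, 4.92% of Ankrd37 and 12.1% of Ndrg1, so that without strand only the reads in these stretches cannot be told apart.

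Ankrd37, a small ankyrin repeat gene that HIF1A is known to raise, was at 8.24 to 39.7 normalized cpm in the tumors (median 17.9) and at 1.54, 0.361 and 4.14 in the glands. All tumors were above all glands (2.79 ± 0.44, limma adjusted p = 2.33e-04). Ddit4 (REDD1), an inhibitor of mTORC1 that also answers to other stresses and to glucocorticoids, was at 63.4 to 121 in the tumors (median 93.5) and at 43.8, 39.7 and 27.9 in the glands. All tumors were above all glands (1.28 ± 0.20, limma adjusted p = 2.09e-04).

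Ndrg1, a stress and differentiation gene that hypoxia is known to raise, went the other way. It was at 107 to 404 normalized cpm in the tumors (median 190.4) and at 449, 657 and 463 in the glands, with all tumors below all glands (-1.41 ± 0.33, limma adjusted p = 0.00550). Vegfa, the growth factor for blood vessels, was at 32.5 to 211 in the tumors (median 101) and at 118, 132 and 113 in the glands and did not pass the test (-0.38 ± 0.39, limma adjusted p = 0.517). A further target, P4ha1, a collagen prolyl hydroxylase subunit, was above all glands in all tumors at 0.91 ± 0.22 (limma adjusted p = 0.00637) and stayed under the 2-fold limit.

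The remaining targets did not pass the test. Log2 fold changes were 0.81 for P4ha2, 0.49 for Bnip3l, 0.36 for Adm and -0.94 for Bnip3. Bnip3 and Bnip3l, which mark mitochondria for removal, were highest in tumor 9 among the tumors and in gland 3 among the glands. Both libraries are among those that stood apart by GC content, and the transcripts of Bnip3 and Bnip3l have 41.63% and 41.85% GC. The part of library composition in these values was not tested. Bnip3 was at 51.0, 54.0 and 255 in the glands, and without gland 3 its difference was -0.19. Of the 11 other HIF targets, 4 were thus higher (36.4%, against 10.2% of all genes tested), 1 was lower (9.09%, against 6.99%) and 6 were not called.

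**Figure D4:**
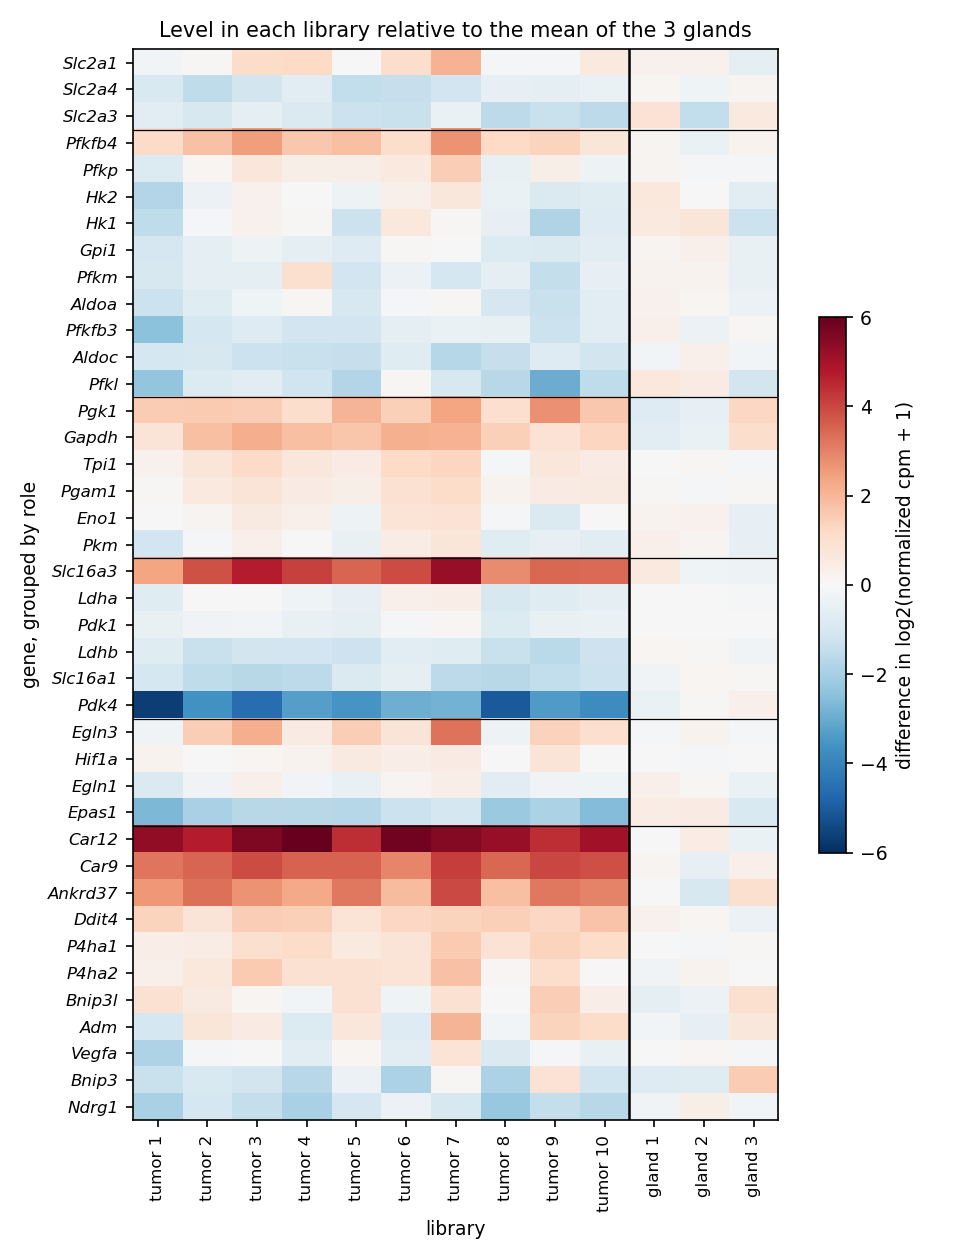
Difference in log2(normalized cpm + 1) between each library and the mean of the 3 glands, for the 40 members grouped by role. Car12, Car9, Slc16a3 and Ankrd37 were above every gland in all 10 tumors and Pdk4 was below every gland, and gland 3 stood above the other glands for Bnip3, Bnip3l, Pgk1 and Gapdh.

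The tumors differed among themselves along the members. Tumor 7 had the highest value of the 10 tumors for 24 of the 40 members, among them Slc2a1 (225), Ldha (805), Slc16a3 (79.3), Egln3 (373), Vegfa (211), Ankrd37 (39.7) and Adm (23.5 normalized cpm). Tumor 1 had the lowest value for 15 members, among them Slc16a3 (10.3), Vegfa (32.5) and Adm (1.80), and tumor 8 for 9. Median ranks were 10 for tumor 7, 8 for tumors 3 and 6, and 2 for tumors 1 and 8. Tumor 7 was the single tumor of its mouse and was not among the libraries that stood apart, with 8811952 reads and 2.87% of reads from Rn45s. Tumor 1 was among them. Tumors 8, 9 and 10 came from the same mouse and had 23.3, 164 and 39.0 normalized cpm of Bnip3. The same counts and ranks were not taken over all listed genes, so these orders are not shown to be particular to the members. Whether composition or biology sets these orders was not tested.

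**Figure D5:**
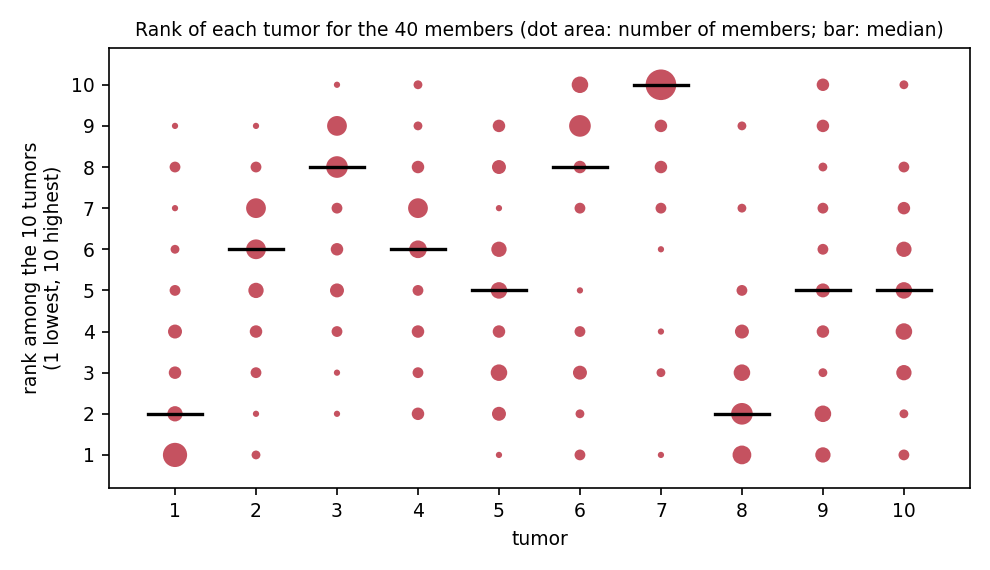
Rank of each tumor among the 10 tumors (1 lowest, 10 highest) over the 40 members, with dot area proportional to the number of members at that rank and the median rank as a bar. Tumor 7 ranked highest for 24 members, and tumors 1 and 8 had a median rank of 2.

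Tumor 4 had the highest value of Pfkm, the muscle-type phosphofructokinase (62.6 normalized cpm, with the other tumors at 11.4 to 25.3). The summed level of the skeletal muscle markers was highest in this tumor as well (3002 normalized cpm, against a median of 33.5 over the tumors). The part of muscle tissue in this value was not tested.

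The genes around the members gave the wider setting. Of 17 tested further genes of glycolysis and gluconeogenesis, 2 were significantly higher (11.8%, against 10.2% of all genes tested), Eno2 (2.80 on the log2 scale) and Hk3 (from a mean of 2.22 in the glands to 8.90 normalized cpm), and 4 were lower (23.5%, against 6.99%), with Gpd1, which links glycolysis to triglyceride synthesis, at -4.68, the pyruvate carboxylase gene Pcx at -3.63 and Gpd2 at -1.47 on the log2 scale. Of 15 tested further pyruvate and lactate genes, 1 was higher (6.67%), Ldhd (1.37), and 7 were lower (46.7%). Among those lower were Gpt2 (-1.99), the pyruvate dehydrogenase subunit Dlat (-1.73) and the mitochondrial pyruvate carrier Mpc1 (-1.73). Mpc1 was at 53.9, 46.9 and 189.8 in the glands, and without gland 3 its difference was -1.10.

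Of 29 tested further genes of the HIF system and its targets, 8 were significantly higher (27.6%, against 10.2% of all genes tested) and 4 lower (13.8%, against 6.99%). Igfbp3, which binds insulin-like growth factors, was at 242 to 1081 normalized cpm in the tumors and 20.2 to 36.3 in the glands (4.06 on the log2 scale), and Pgf, a relative of Vegfa, was at 3.63. The largest falls were Angptl4, which inhibits lipoprotein lipase (-2.15), Lox, which cross-links collagen (-1.88), and the glycogen branching enzyme Gbe1 (-1.87). Of 8 pentose phosphate genes none was higher and 4 were lower (50%, against 6.99%), with Tkt at -2.30, Taldo1 at -1.26 and Pgd at -1.05 on the log2 scale. Of 72 tested nuclear genes of the respiratory chain, 1 was higher, Atp5g2 (1.30, and 2.12 without gland 3), none was lower by limma and the 2-fold limit, and 11 were lower by the FDR alone, near the 13% over all genes tested. Gland 3 decided the direction of this list, whose median log2 fold change was -0.09 with all libraries and 0.45 without gland 3, and whose summed level was 11000, 11946 and 29048 normalized cpm in the glands. Markers of brown fat cells summed to 244, 144 and 470 in glands 1, 2 and 3, and to 46.1 to 108 in the tumors. The part of such cells in the respiratory chain levels was not tested.

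The glands held more fat cell and milk RNA than the tumors. Adipocyte markers summed to 98.2 to 538 normalized cpm in the tumors and to 4360, 4787 and 11664 in the glands, and all 12 were lower without the filter, with Adipoq and Plin1 at or under 26.4 and 11.4 in the tumors. Fat cells are known to express Slc2a4, Pdk4, Gpd1, Pcx and Angptl4. The 8 milk genes summed to 1385 to 76630 in the tumors and 165045 to 305302 in the glands. Of the markers of other cells that passed the filter, 3 of 3 neutrophil (without the filter 3 of 6 listed), 3 of 10 macrophage and 6 of 14 proliferation genes were higher and none of them lower, against 10.2% higher over all genes tested. Fibroblast markers were lower for 6 of 10 (median log2 fold change -1.91) and lymphocyte markers for 2 of 3, or for 9 of 12 without the filter, against 6.99% lower over all genes tested. The part of these cells in the levels of the members was not tested.

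When each library was scaled to the summed level of the epithelial markers instead, the median of all genes tested moved to -0.33 on the log2 scale, and the split among the members changed from 8 higher and 6 lower to 6 higher and 9 lower, against 6.61% higher and 13.4% lower of all genes tested under this scaling. Pgk1 (1.32, limma adjusted p = 0.0751) and Ddit4 (0.93, limma adjusted p = 0.00561, under the 2-fold limit) were no longer called under this scaling. Slc16a3 (3.49), Car9 (3.31), Car12 (4.94) and Pdk4 were called in the same direction with it. Hif1a (-0.10), Pfkp (-0.12) and Eno1 (-0.22), none of which passed the test, changed sign. Of the 18 epithelial markers used as the scale, 5 were themselves significantly higher in the tumors before it (27.8%, against 10.2% of all genes tested). Their sum was 3080, 4426 and 1933 normalized cpm in glands 1, 2 and 3, and 2901 to 4566 in the tumors.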

How the data were processed

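Total RNA of 10 tumors and 3 glands was sequenced as paired-end reads. Per the study's methods, reads of 75 base pairs were aligned to mm10 by Rsubread, assigned to genes by featureCounts and normalized in edgeR. The deposited signal values are the authors' counts divided by an effective library size, and 100% of them were whole multiples of 1 read within a tolerance of 0.05, so that reads could be recovered. The methods name the UNMC core facility (NextSeq) as the sequencing site, and the labels name it together with the company Novogene without saying which libraries each sequenced, so that no batch could be assigned.

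The members and gene lists were chosen with earlier results of these data known. The filter dropped 3418 genes that were at or under 5 normalized cpm in the majority of the 13 libraries. The remaining 11795 entered limma 3.58.1 in R 4.3.3, with a variance trend on log2(normalized cpm + 1), a pseudocount of 1 and condition as the only term. Fold changes on this scale understate those of low genes. P-values take tumors as separate samples, although several share a mouse. They rest on the spread within the tumors and within the glands together, moderated across genes. Named genes followed a fixed rule: values by library for each significantly deregulated member and for Hif1a, Epas1, Egln1, Vegfa, Gapdh, Ldha, Ldhb and Pkm, other members by range or fold change, and up to 3 rises and 3 falls in each wider list. One gene that the rule names is not reported here. Values of other members were added after they were seen. Alternatives used edgeR 4.0.16 and DESeq2 1.42.0 on the recovered reads. Gene positions and promoters are from RefSeq (GRCm38.p6), matched by Entrez ID for 15106 genes, and exon lengths from protein-coding transcripts of GENCODE M21.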

Additional observations from a re-analysis of the deposited data

Results flagged for a closer look

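For 2 of the 40 members, one tumor lay far from the other tumors by Dixon's test on the log2(normalized cpm + 1) scale, where the gap to the next tumor over the whole range exceeded the 95% critical value for 10 samples. Pfkm in tumor 4 was at 62.6 normalized cpm, with a gap of 0.54 of the range above the other tumors. Pfkfb3 in tumor 1 was at 14.6 normalized cpm, with a gap of 0.56 of the range below the other tumors. Chance flags about 1 in 20 groups, which is what was seen over these members.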

How the results depend on the processing

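Of the 14 significantly deregulated members, 11 kept their call and direction in each of 24 alternatives other than the replicate block, and all 14 kept their direction in all 25. The alternatives were a pseudocount of 0.25, no filter, DESeq2 size factors, epithelial scaling, edgeR, DESeq2, tumors of a mouse as correlated or averaged, the mouse of 3 tumors left out, each library left out in turn and, chosen after seeing the data, a library GC term and leaving out the 4 libraries that stand apart. The exceptions were Pgk1, Ddit4 and Ldhb, given above. Leaving out 1 library gave 7 to 8 higher and 6 to 8 lower members, and the FDR alone gave 10 higher and 8 lower. Without the 4 libraries that stand apart, 9 were higher and 7 lower. Of the 26 members not called, 6 gained a call somewhere (Slc2a3, Slc2a4, Pfkl, Pfkfb3, Egln3 and P4ha1). With the replicate block, 2 members were higher and 1 was lower (Car9, Car12 and Pdk4). The replicate numbers did not pair the libraries, which come from different mice, since the deviations of gland and tumor with the same number correlated at -0.579, 0.0447 and -0.664. Over all genes the block left 362 higher and 182 lower, against 1204 and 825, and epithelial scaling gave 774 higher and 1568 lower. Depth limits the lowest values: Car9 and Ankrd37 rested on 7 reads in gland 2 and Slc16a3 on 6 reads in gland 3, where 3 reads amount to 0.128 to 0.366 normalized cpm over the glands, for counting error only.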
